A study of Arabidopsis thaliana with 57 samples.

Results

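The SRDX-SPCH line was compared with the NLS control line, both sampled after 2, 3 and 4 h of dexamethasone (DEX). All libraries of the SRDX-SPCH line were set against all libraries of the NLS line, which gave 22 of the 57 libraries of the series. The NLS line had 3 libraries at 2 h, 4 at 3 h and 4 at 4 h, and the SRDX-SPCH line had 4, 3 and 4. Both lines are Arabidopsis thaliana of the Col-0 background, and both carry the FAMA promoter in front of LhG4 fused to the glucocorticoid receptor (GR), so the controls share the driver and the DEX treatment. In the SRDX-SPCH line the OP promoter (OPp) drives a Venus-tagged fusion of the SRDX repression domain with SPEECHLESS (SPCH), and in the NLS line it drives a nuclear localization signal with Venus. Seedlings were induced 10 days after germination, leaves were digested to protoplasts, and Venus-positive cells were collected by fluorescence-activated cell sorting (FACS) before mRNA-seq. For its SPCH and FAMA lines the study found cell division terms lower against NLS. It proposes that unequal Venus signal let more weakly fluorescent cells into the NLS samples and so shifted their cell composition. Whether this holds for the SRDX-SPCH line was not tested here. The driver acts only where the FAMA promoter is active, mainly in late guard mother cells and guard cells and in some myrosin cells, and whether each line stems from a single transformant is not given in the sources used here. The replicates are described as biological, but which of them share plants or a sorting day is not given in the sources used here.

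Stomata form through 3 related basic helix-loop-helix factors. SPCH starts the asymmetric divisions of the lineage, MUTE moves cells to the guard mother cell state, and FAMA ends division and promotes guard cell identity. Factors of this family bind E-boxes in DNA together with the partner proteins ICE1 (SCREAM) and SCRM2. SRDX is a short plant repression motif which, fused to a transcription factor, turns it into a repressor of the genes it binds. DEX lets the GR-tagged LhG4 enter the nucleus, where it switches on the OP promoter. The comparison therefore asks which transcripts differ in cells of the late stomatal lineage within hours of producing a repressor form of SPCH.

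The NLS libraries held 29128167 to 60348384 counts, with a median of 38383295. Those of SRDX-SPCH held 7296381 to 45286033, with a median of 33455383, and SRDX-SPCH at 2 h replicate 3 was the shallowest. Values below are normalized CPM (each library's counts brought to a common total, after TMM scaling), except for the SPCH locus, whose row was left out before scaling because reads of the transgene and of the endogenous gene fall on the same row. That row had at most 32.68 CPM in NLS (median 17.32) and at least 4910 in SRDX-SPCH (median 6303). All 22 libraries thus matched their label in the presence or absence of a SPCH transgene. The row cannot tell SRDX-SPCH from SPCH without SRDX. Of the guard cell genes used to check the sorted cells, FAMA ranged from 146.3 to 362.9 in NLS and from 230.8 to 417.4 in SRDX-SPCH, and the anion channel SLAC1 from 99.31 to 183 and from 110.2 to 165. The log2 difference was 0.24 for FAMA, 0.03 for SLAC1, 0.51 for KAT1, 0.45 for MYB60 and 0.19 for FOCL1. It was 0.15 for WSB, 0.09 for HT1, -0.0026 for SCAP1, -0.32 for MUTE and -0.45 for GC1. None of these guard cell genes passed the adjusted threshold. The myrosinase TGG1, which marks myrosin cells and is also made in guard cells, was far more abundant, at 20880 to 42070 in NLS and 28810 to 48120 in SRDX-SPCH. Its log2 difference was 0.42, and that of TGG2, described below, was 1.62. The other myrosin cell gene checked, MVP1, had the opposite sign, at -0.26, and did not pass (adjusted p = 0.284, edgeR). The 70 tested photosynthesis genes, which mark mesophyll, summed to between 5000 and 37400 in NLS and between 10000 and 17100 in SRDX-SPCH. None of these 70 genes passed the adjusted threshold, and 1 had an unadjusted p under 0.05, against 2.67% and 12.9% of all genes. These are bulk samples, in which fewer cells of a type and less RNA per cell cannot be told apart.

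Over the time points, 652 of 24442 genes tested (2.67%) differed between the lines at an adjusted p under 0.05 (edgeR's quasi-likelihood test with time point as a covariate and Benjamini-Hochberg adjustment). Of these, 415 (1.7%) were higher in SRDX-SPCH than in NLS and 237 (0.97%) were lower. The differences were mostly small, with a median log2 difference of 0.64 for the higher genes and -0.53 for the lower ones, beside 0.0057 over all genes tested. A difference of at least 2-fold was found for 95 higher and 33 lower genes. At each of 2, 3 and 4 h the sign was the same for 414 of the 415 higher and for all 237 lower genes, where 37.3% of all genes tested had 1 sign at all times. The genes were called from these same libraries, so this agreement follows in part from the selection. For 36 higher and 8 lower genes the 11 libraries of one line did not overlap the 11 of the other, against 0.184% of all genes tested. Library names end in a letter, and with this letter as a block 747 genes were higher and 546 lower, and 645 of the 652 genes were among them. With letter and time point together as the block, an alternative chosen after seeing the data, 587 were higher and 364 lower, and 523 of the 652 were among them. Libraries of both lines that share a letter and a time point deviated together in 8 of 8 pairs, and what the letter stands for is not given in the sources used here. Without the shallow SRDX-SPCH 2 h replicate 3, 349 genes were higher and 180 lower. Leaving out other single libraries gave 292 to 538 higher and 122 to 305 lower genes, with 122 lower genes without NLS 2 h replicate 2, 137 without NLS 4 h replicate 3 and 157 without SRDX-SPCH 4 h replicate 4.

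**Figure D1:**
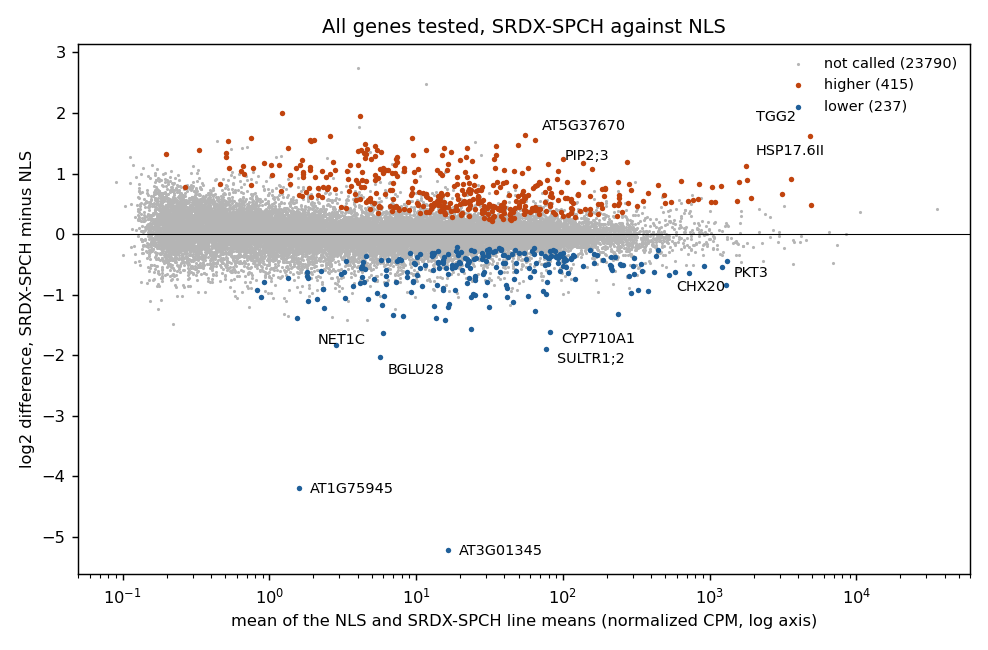
Log2 difference between SRDX-SPCH and NLS (vertical axis) against the mean level of each gene in normalized CPM (horizontal log axis) for the genes tested. The 415 genes called higher (red) and 237 called lower (blue) spread over the whole range of levels, and most lie within 1 log2 unit of 0, with AT3G01345 and AT1G75945 far below.

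Among the higher genes, the smallest p belonged to AT5G56460, which encodes a protein kinase superfamily member on chromosome 5. It had 5.624 to 12.67 CPM in NLS (median 8.231) and 15.53 to 29.77 in SRDX-SPCH (median 22.19). The lines did not overlap at any time point, and the log2 difference was 1.42 ± 0.10 (SE, adjusted p = 1.9e-08, edgeR). NAC028, a NAC domain transcription factor, had 1.722 to 3.537 CPM in NLS (median 2.202) and 3.959 to 11.5 in SRDX-SPCH (median 6.157). Again no library overlapped, with a log2 difference of 1.48 ± 0.14 (SE, adjusted p = 1.06e-06, edgeR). IDD16, a zinc finger factor of the INDETERMINATE DOMAIN family, rose from a median of 1.211 CPM to 4.002, and its libraries, at 0.8084 to 1.876 in NLS and 2.199 to 4.952 in SRDX-SPCH, also stayed apart. Its log2 difference was 1.62 ± 0.15 (SE, adjusted p = 1.53e-06, edgeR). 3 of the other genes with the smallest p encode a VQ motif protein (AT3G58000), a second protein kinase (AT5G56790) and a leucine-rich repeat kinase (AT1G67720), with log2 differences of 1.58, 1.08 and 1.42 and no overlap of the lines. AGP10, an arabinogalactan protein of the cell surface, had 14.29 to 31 CPM in NLS and 39.23 to 67.97 in SRDX-SPCH, a log2 difference of 1.3 ± 0.14 (SE, adjusted p = 1.54e-05, edgeR). A gene model on the same stretch of DNA, AT4G09035, was higher too (log2 difference 1.23), and reads of both cannot be told apart if counting ignored strand. Several of these genes were about as high in another factor line. AT5G56460 had a mean of 25.33 CPM in the SRDX-FAMA line, beside 22.58 in SRDX-SPCH. In the SPCH line IDD16, AT3G58000, AT5G56790 and AT1G67720 had means of 3.631, 12.47, 13.84 and 28.99 CPM. Their means in SRDX-SPCH were 3.937, 13.91, 14.02 and 32.11 CPM. NAC028 and AGP10 had means of at most 4.423 and 33.98 CPM in the other factor lines, beside 6.528 and 50.01 in SRDX-SPCH.

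TGG2, a myrosinase that hydrolyses glucosinolates, had the highest mean in SRDX-SPCH (7308 CPM) among the genes named as higher. It had 1633 to 4237 CPM in NLS (median 2269) and 4716 to 12510 in SRDX-SPCH (median 7471). No library overlapped, and the log2 difference was 1.62 ± 0.19 (SE, adjusted p = 3.06e-05, edgeR). The mean of TGG2 was higher still in the SPCH line, at 10190 CPM. TGG1, its close paralog and the more abundant of both, had a log2 difference of 0.42 that did not pass (adjusted p = 0.147, edgeR), and reads common to the paralogs could have been split between them. The aquaporin genes PIP2;3 and PIP2;2, neighbours on chromosome 2 with near-identical sequence, were higher as well, so that their separate values are uncertain. PIP2;3 had 37.63 to 85.46 CPM in NLS and 91 to 166.9 in SRDX-SPCH, and PIP2;2 had 8.017 to 16.91 and 21.08 to 46.61, with log2 differences of 1.05 ± 0.12 and 1.28 ± 0.15 (SE). In both genes the lines stayed apart. The highest mean in another factor line was 90.5 CPM for PIP2;3 (SRDX-FAMA) and 27.3 for PIP2;2 (SPCH). In SRDX-SPCH these means were 124.2 and 30.89 CPM. LSH1, a member of the LIGHT-DEPENDENT SHORT HYPOCOTYLS family, had 1.253 to 3.005 CPM in NLS and 4.237 to 10.88 in SRDX-SPCH. Its mean was 8.203 CPM in the SPCH line and 6.072 in SRDX-SPCH. ENODL18, an early nodulin-like protein, had 6.872 to 13.9 and 13.14 to 26.73, with some overlap of the lines. The largest fold changes among called genes with a mean of at least 5 CPM also took in AT5G37670, a small heat shock protein of the HSP20 family (log2 difference 1.55), and AT1G62480, annotated as a vacuolar calcium-binding protein (log2 difference 1.63).

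**Figure D2:**
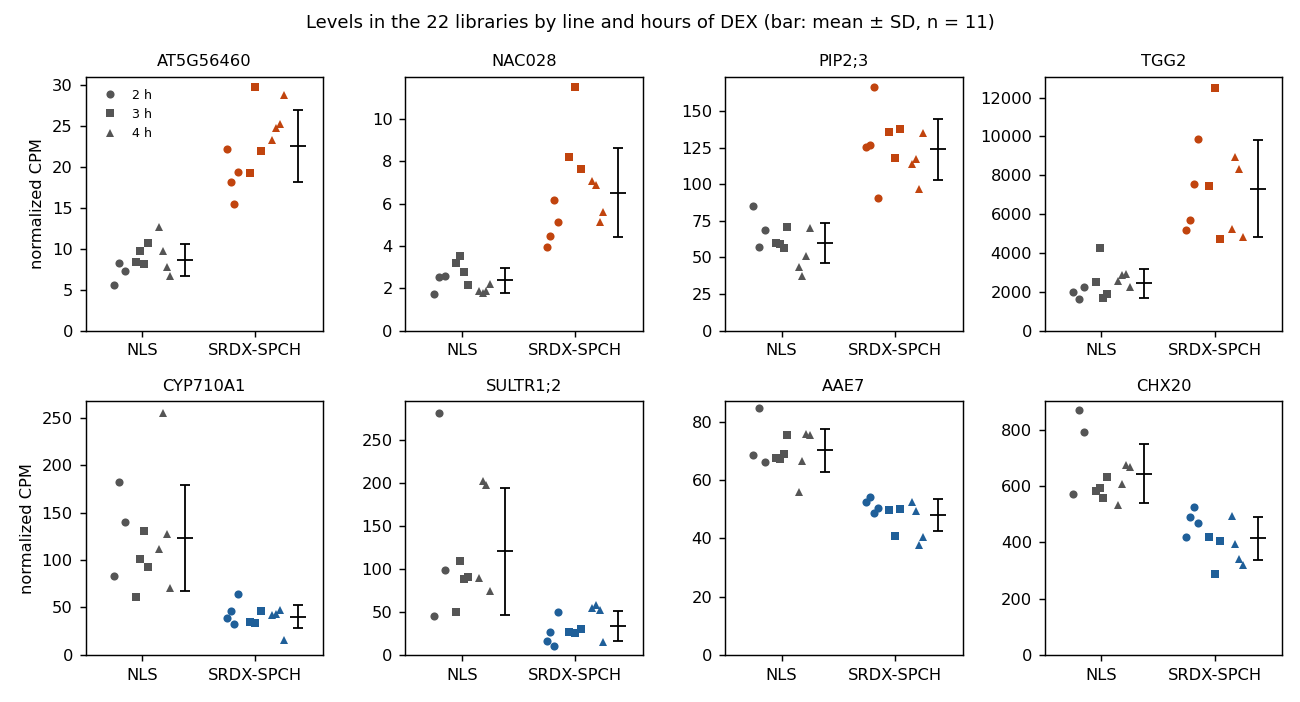
Normalized CPM of 8 genes in the 22 libraries, by line and by hours of DEX (circles 2 h, squares 3 h, triangles 4 h), with the mean ± SD over 11 libraries as a black bar. The upper row shows higher genes, whose lines do not overlap, and the lower row shows lower genes, of which CYP710A1 and SULTR1;2 spread widely in NLS and overlap with SRDX-SPCH.

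Among the lower genes, 7 of the 12 with the smallest p were low in every factor line and not only in SRDX-SPCH. AT3G01345, of unknown function, had 27.35 to 38.02 CPM in NLS and 0.1506 to 2.803 in SRDX-SPCH. AT1G75945, also of unknown function, had 1.852 to 4.259 CPM in NLS and 0 to 0.2697 in SRDX-SPCH. For these 2 genes the log2 difference was -5.22 ± 0.37 and -4.19 ± 0.27 (SE), the largest falls of the comparison. The means of the SPCH, FAMA and SRDX-FAMA lines were 0.5418, 0.6077 and 0.4641 CPM for AT3G01345 and 0.1454, 0.1687 and 0.07063 CPM for AT1G75945. NET1C, an actin-binding protein of the NETWORKED family, and SULTR3;2, a sulfate transporter gene that overlaps it on the opposite strand, had the same order, with log2 differences of -1.64 ± 0.13 and -1.39 ± 0.17 (SE) and line means in the 3 other factor lines close to that of SRDX-SPCH. AT3G44006, AT3G41762 and AT2G01008 completed this set. For none of the 7 did the difference between SRDX-SPCH and the 3 other factor lines pass (adjusted p from 0.139 to 0.998, edgeR).

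The other lower genes with the smallest p had their lowest level in SRDX-SPCH, except CHX20. CYP710A1, a cytochrome P450 that makes stigmasterol from sitosterol, had 60.75 to 255.1 CPM in NLS (median 111.3) and 15.49 to 64.68 in SRDX-SPCH (median 41.86). The lines overlapped only between the highest SRDX-SPCH and the lowest NLS library, and the log2 difference was -1.63 ± 0.22 (SE, adjusted p = 0.000142, edgeR). AAE7, an acyl-activating enzyme of the peroxisome that activates acetate, had 56.04 to 84.68 CPM in NLS and 37.85 to 54.31 in SRDX-SPCH, without overlap. Its log2 difference was small but even, at -0.57 ± 0.08 (SE, adjusted p = 0.00022, edgeR), and its gene partly overlaps AT3G16900. AT1G78830, a mannose-binding lectin family gene, had 235.7 to 597 CPM in NLS and 151.2 to 289.8 in SRDX-SPCH. CHX20, a cation/H+ exchanger of guard cells, had 531.1 to 871.3 CPM in NLS and 286.7 to 524.6 in SRDX-SPCH, again without overlap, with a log2 difference of -0.67 ± 0.10 (SE, adjusted p = 0.000398, edgeR). Its mean was 607.2 CPM in the SPCH line, 755.8 in the FAMA line and 282.4 in the SRDX-FAMA line, and its difference from the 3 other factor lines did not pass (adjusted p = 0.0787, edgeR). AT2G01810, a RING/FYVE/PHD zinc finger gene, had 1.864 to 4.663 CPM in NLS and 0.5597 to 2.169 in SRDX-SPCH, with a log2 difference of -1.23 ± 0.19 (SE, adjusted p = 0.000629, edgeR).

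The E-box CACGTG (G-box), which reads the same on both strands, was searched in the 250 bases before each gene, since SPCH belongs to a family that binds E-boxes. Among the lower genes named here, AT2G01810, the auxin-conjugating enzyme gene GH3.2 and the glutamate dehydrogenase gene GDH1 held it without overlapping another annotated gene. Their upstream bases, from the RefSeq TAIR10.1 assembly and read along the gene's strand (+ in all 3), are shown with CACGTG in capitals to give its place before the gene's start, at chr2:347287-347536, chr4:17579368-17579617 and chr5:6005785-6006034.
AT2G01810: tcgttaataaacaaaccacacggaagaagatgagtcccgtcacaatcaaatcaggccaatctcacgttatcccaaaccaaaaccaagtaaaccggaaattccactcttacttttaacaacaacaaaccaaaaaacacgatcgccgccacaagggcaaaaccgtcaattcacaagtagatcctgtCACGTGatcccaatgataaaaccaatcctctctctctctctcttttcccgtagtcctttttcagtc
GH3.2: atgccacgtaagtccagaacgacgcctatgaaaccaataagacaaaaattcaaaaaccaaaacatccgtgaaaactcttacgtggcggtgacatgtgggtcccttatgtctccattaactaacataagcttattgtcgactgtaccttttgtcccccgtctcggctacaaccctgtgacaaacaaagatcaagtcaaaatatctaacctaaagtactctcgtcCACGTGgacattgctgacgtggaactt
GDH1: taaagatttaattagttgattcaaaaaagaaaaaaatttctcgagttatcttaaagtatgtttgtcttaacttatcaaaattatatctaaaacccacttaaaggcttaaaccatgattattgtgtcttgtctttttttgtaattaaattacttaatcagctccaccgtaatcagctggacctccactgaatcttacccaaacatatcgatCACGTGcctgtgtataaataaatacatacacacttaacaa

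The motif began 66 bases before the start of AT2G01810, 27 before GH3.2 and 40 before GDH1. Among the higher genes named here, HSP17.4, SNRK2.3 and TPPJ also held CACGTG without such an overlap, and their bases are not shown. Across all genes tested, 1678 of 24315 windows (6.9%) held CACGTG, beside 20 of 236 (8.47%) for the lower and 41 of 415 (9.88%) for the higher genes. Windows with CANNTG, the general E-box, made up 55.8% of all, 56.4% of the lower and 62.4% of the higher genes. CACATG or its reverse CATGTG was found in 11.1%, 14.4% and 13% of these windows, and CAGCTG in 1.85%, 2.12% and 1.93%; all 3 of these motifs are E-boxes, so the CANNTG count includes them and CACGTG. A match describes letters in the window and not a bound site.

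SRDX-SPCH was also tested against the mean of the SPCH, FAMA and SRDX-FAMA lines in a fit of all 57 libraries. A gene can pass this test without differing from each of the 3 lines. TGG2 passed as higher (adjusted p = 0.00254, edgeR) with a mean of 10190 CPM in the SPCH line and 7308 in SRDX-SPCH. The test shares its SRDX-SPCH libraries with the comparison against NLS, so the results of both are given side by side and are not independent. In this test 1266 of 25303 genes (5%) were higher and 1074 (4.24%) lower, together 9.25% (edgeR, adjusted p under 0.05). Of the 415 genes higher than in NLS, 242 (58.3%) were also higher than the mean of the 3 other lines. Of the 237 lower genes, 162 (68.4%) were also lower than that mean. The library labelled SRDX-FAMA 4 h replicate 2 had high SPCH and low FAMA counts, which goes against its label. Without it the counts were 270 and 170, where 5.9% of all genes were higher and 4.83% lower than the mean of the other lines. No higher gene and 6 lower genes went the opposite way. The NLS mean was the lowest of the 5 lines for 237 of the 415 higher genes and the highest for 80 of the 237 lower genes. The SRDX-SPCH mean was the highest of the 5 for 310 higher genes and the lowest for 184 lower genes. Without SRDX-FAMA 4 h replicate 2, these 4 counts were 214 and 79 for NLS and 310 and 185 for SRDX-SPCH. All of these genes were selected because SRDX-SPCH and NLS differ, so an extreme rank of either line follows in part from the selection. The ranks were not counted over all genes tested, and they do not show that a difference is particular to SRDX-SPCH.

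The higher gene with the smallest p in that test among those also higher than in NLS was AT1G76620, annotated as a putative serine/threonine kinase. It had 14 to 20.55 CPM in NLS and 22.89 to 46.92 in SRDX-SPCH, without overlap, while the SPCH, FAMA and SRDX-FAMA lines had means of 13.92, 17.04 and 17.58 CPM. ENODL18 (7.542, 11.72 and 13.36 CPM in those lines, against 21.94 in SRDX-SPCH), the beta-glucosidase BGLU40, AT1G65900 and the trehalose-6-phosphate phosphatase gene TPPJ followed. For TPPJ the log2 difference was 0.54 against NLS and 1.09 against the 3 other lines. AO1 (AT5G20960), an aldehyde oxidase, was among the lower genes with the smallest p. It had 13.89 to 33.59 CPM in NLS (median 17.79) and 5.877 to 16.65 in SRDX-SPCH (median 10.61), and means of 28.06 CPM in the SPCH line, 30.16 in the FAMA line and 15.5 in the SRDX-FAMA line. The NLS and SRDX-SPCH libraries overlapped. The log2 difference was -0.90 ± 0.16 (SE) against NLS and -1.15 against the 3 others (adjusted p = 3.31e-07, edgeR). AAE7, AT2G01810, the nitrate transporter NRT1.1 and the homeodomain-leucine zipper gene HB-1 (AT3G01470) behaved alike, all lower against both references.

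**Figure D3:**
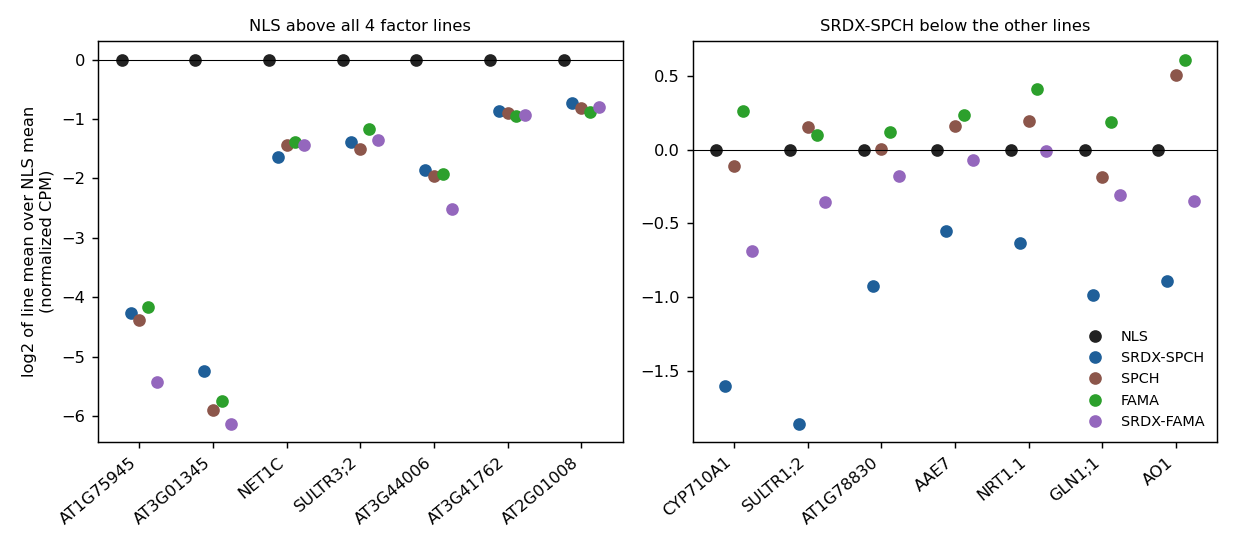
Log2 ratio of each line's mean to the NLS mean in normalized CPM for 14 lower genes, with 1 color a line. On the left, all 4 factor lines lie below NLS, and on the right, SRDX-SPCH (blue) lies lowest, at -0.55 to -1.86, while the SPCH and FAMA lines lie near or above NLS.

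Heat shock genes were the list with the most higher members. Of 25 tested genes for cytosolic heat shock proteins and their cofactors, 8 were higher and 0 lower, where 1.7% of all genes were higher, and 15 had an unadjusted p under 0.05, all with a positive difference. The median log2 difference was 0.40, beside 0.0057 over all genes. HSP17.6II, a small heat shock protein that keeps unfolded proteins soluble, had 592.3 to 1923 CPM in NLS (median 1110) and 1529 to 3350 in SRDX-SPCH (median 2467). Its libraries overlapped, and the log2 difference was 1.13 ± 0.18 (SE, adjusted p = 0.000946, edgeR). ROF2, a heat-induced peptidyl-prolyl isomerase, had 1324 to 1951 CPM in NLS and 1592 to 2951 in SRDX-SPCH, with a log2 difference of 0.59 ± 0.10 (SE). HSP17.6A (log2 difference 0.91), HSP17.4 (0.89), HSP70B (0.86), the co-chaperone BAG6 (0.66), the coactivator MBF1C (0.52) and HSP90.1 (0.48) were the others. The call was lost in 18 of 36 alternatives for BAG6, 13 for HSP90.1 and 6 for HSP70B, mostly by leaving out 1 library. HSP17.6II and HSP17.6A are neighbours on chromosome 5. The summed level of the list ranged from 25590 to 43620 CPM in NLS and from 36580 to 57110 in SRDX-SPCH, so it overlapped. The difference of the list was largest at 2 h, where the NLS sums were 37320, 25590 and 26640 CPM and the SRDX-SPCH sums 57110, 55700, 52470 and 41460. At 2 h every SRDX-SPCH library thus lay above every NLS library. The number of members called ranged from 5 to 11 when single libraries were left out, with 5 without NLS 2 h replicate 2, NLS 2 h replicate 3, NLS 4 h replicate 3, SRDX-SPCH 3 h replicate 1 or SRDX-SPCH 4 h replicate 1, and was 14 with the letter block. The chaperones of the endoplasmic reticulum, a separate list of 23 genes, had 0 called members, 1 with an unadjusted p under 0.05, and a median log2 difference of -0.02. Rapid touch and wound response genes, which handling of leaves can induce, had 0 called members of 38, 2 with an unadjusted p under 0.05, and a median of -0.05.

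Lists for nitrogen and sulfur metabolism and for the peroxisome were written after the values had been seen, so that their counts are a description and no evidence of a theme. Of 21 tested genes for nitrogen uptake and assimilation, 5 were lower and 0 higher (0.97% and 1.7% of all genes). GLN1;1, a cytosolic glutamine synthetase, had 16.16 to 50.88 CPM in NLS (median 29.81) and 10.35 to 23.06 in SRDX-SPCH (median 15.91). The lines overlapped, with a log2 difference of -0.99 ± 0.16 (SE, adjusted p = 0.00109, edgeR). NRT1.1, a nitrate transporter and sensor, had 102.6 to 173.1 CPM in NLS and 58.24 to 120.3 in SRDX-SPCH, a log2 difference of -0.64 ± 0.12 (SE, adjusted p = 0.0046, edgeR). The nitrate reductase NIA2 (-0.51) and the glutamate dehydrogenases GDH2 (-0.64) and GDH1 (-0.36) were lower too. GDH2 lost its call in 14 of 36 alternatives, 12 of them by leaving out 1 library, and GDH1 in 5, the block of letter within time point among them. The median of the list was -0.10. Between 3 and 5 members were called when single libraries were left out, with 3 without NLS 2 h replicate 2 or NLS 4 h replicate 3.

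Of 28 tested genes for sulfate uptake and the response to low sulfur, 4 were lower and 0 higher, where 0.97% of all genes were lower and 1.7% higher, with a median of -0.23. SULTR1;2, a high-affinity sulfate transporter, had 45 to 280.6 CPM in NLS (median 90.54) and 9.795 to 57.49 in SRDX-SPCH (median 26.88). The highest SRDX-SPCH libraries overlapped the lowest of NLS, and the log2 difference was -1.89 ± 0.32 (SE, adjusted p = 0.0015, edgeR). BGLU28, a beta-glucosidase that rises under low sulfur, had 3.3 to 25.83 CPM in NLS and 0.1399 to 3.862 in SRDX-SPCH, a log2 difference of -2.04 ± 0.33 (SE). LSU1, named for its response to low sulfur, had a log2 difference of -1.04 and lay near the threshold (adjusted p = 0.0463, edgeR), and its call was lost in 19 of 36 alternatives, with the letter block, the replicate block, limma-voom and 16 of the 22 omissions of 1 library. SULTR3;2, the remaining called member, is one of the 7 genes low in all 4 factor lines. Of 17 tested genes for fatty acid oxidation in the peroxisome, 5 were lower and 1 higher (0.97% and 1.7% of all genes). The lower ones were AAE7, the thiolase PKT3 (log2 difference -0.44), the acyl-CoA oxidase ACX3 (-0.28), the citrate synthase CSY2 (-0.33) and the multifunctional protein MFP2 (-0.31). AIM1, the other multifunctional protein of the pathway, was higher (log2 difference 0.37). With the block of letter within time point ACX3, CSY2 and MFP2 were not called, which left 2 lower members. PKT3, the most abundant of them in NLS, had 1156 to 1924 CPM in NLS and 937.3 to 1278 in SRDX-SPCH. The median of this list was -0.21, and 2 to 6 members were lower when single libraries were left out. There were 2 without NLS 2 h replicate 2, NLS 2 h replicate 3 or NLS 4 h replicate 3, and 3 without NLS 3 h replicate 3 or without SRDX-SPCH 2 h replicate 1 or 2, 3 h replicate 2 or 3, or 4 h replicate 1, 3 or 4.

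**Figure D4:**
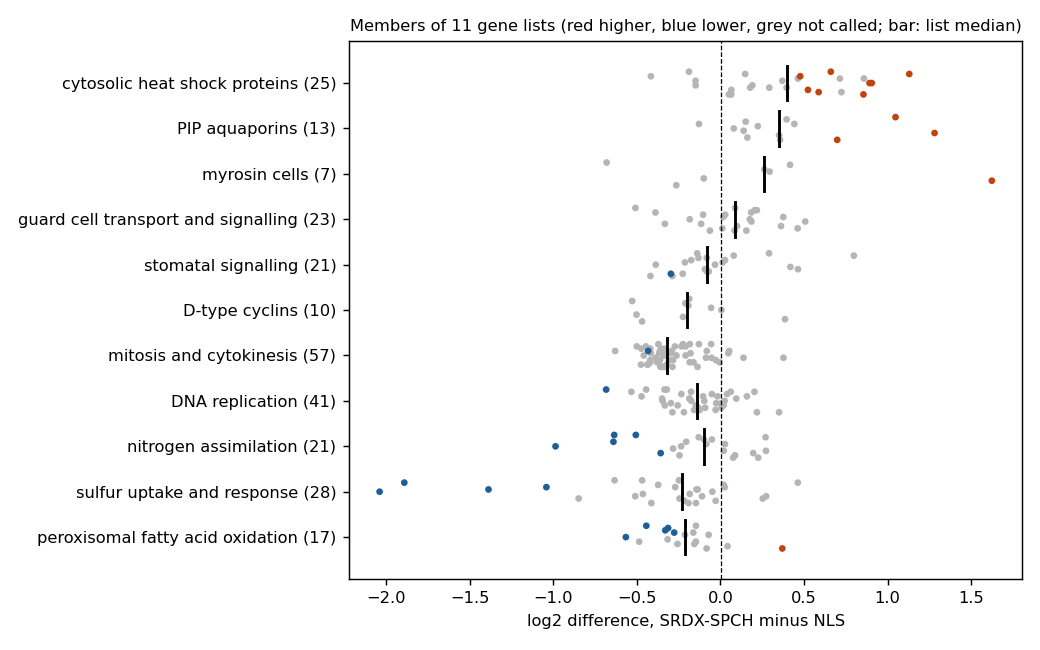
Log2 difference between SRDX-SPCH and NLS of each tested member of 11 gene lists (1 dot a gene, red called higher, blue called lower, grey not called), with the list median as a black bar and the median of all genes as a dashed line. Heat shock genes lie to the right with a median of 0.40, mitosis genes to the left with a median of -0.32 and 1 called gene, and the nitrogen and sulfur lists have a few strongly lower members beside many near 0.

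Few of the genes for which the lineage is known passed the test in this comparison, and 2.67% of all genes tested passed. The called share was 0% for the bHLH factors and partners, 4.76% for stomatal signalling and 16.7% for guard cell fate. It was 2.7% for the epidermis list, 12.5% for the HD-ZIP IV family and 0% for guard cell channels and signalling. In lists this short, such shares rest on few genes. Of the 4 tested bHLH factors and partners, 0 were called and 0 had an unadjusted p under 0.05. MUTE had 0.8393 to 3.931 CPM in NLS and 0.9795 to 3.082 in SRDX-SPCH, and ICE1 and SCRM2 had log2 differences of -0.07 and -0.0036. FAMA, counted on the endogenous gene alone in these lines, had a log2 difference of 0.24 ± 0.13 (SE, adjusted p = 0.473, edgeR). Among 21 tested genes of stomatal signalling, ERL2, a receptor kinase that perceives EPF peptides, was lower, with 32.61 to 43.61 CPM in NLS and 25.36 to 35.78 in SRDX-SPCH (log2 difference -0.30 ± 0.07, SE, adjusted p = 0.0281, edgeR). ERL2 lost its call in 8 of 36 alternatives, namely with the block of letter within time point, in the fit of all lines, with summed counts and without 5 single libraries (NLS 2 h replicate 3, NLS 4 h replicate 3, SRDX-SPCH 2 h replicate 2, 3 h replicate 3 and 4 h replicate 3). The co-receptor TMM (117.2 to 226.1 CPM in NLS, 120.8 to 188.6 in SRDX-SPCH) and the peptide gene EPF2 (2.078 to 4.311 and 1.959 to 4.918 CPM) did not pass and overlapped widely. Of 12 genes for guard cell fate, HDG2, a homeodomain factor that promotes stomatal differentiation, and RBR1, the retinoblastoma-related protein that binds FAMA, were lower. HDG2 had 113.4 to 177.8 CPM in NLS and 94.3 to 126.9 in SRDX-SPCH, and RBR1 had 79.69 to 107.5 and 63.11 to 93.16, with log2 differences of -0.37 ± 0.08 and -0.26 ± 0.07 (SE). The call of RBR1 was lost in 17 of 36 alternatives, with the replicate block, summed counts and 15 of the 22 omissions of 1 library, and that of HDG2 in the fit of all lines and with summed counts. ATML1, a homeodomain factor of epidermal identity related to HDG2, was lower too (-0.37) and was the 1 called gene of 37 in the epidermis list (median -0.06). In the HD-ZIP IV family, listed after the values had been seen, these were the 2 called of 16 genes, 8 of the 16 had a positive difference, and the median was 0.0066. SCAP1, a Dof factor of guard cell maturation, had 84.81 to 187.3 CPM in NLS and 94.48 to 171.1 in SRDX-SPCH. Of 23 genes for guard cell channels and signalling, 0 were called, 3 had an unadjusted p under 0.05, all positive, and the potassium channel gene GORK came closest (log2 difference 0.46, adjusted p = 0.0524, edgeR).

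Genes of mitosis had their most negative differences at 2 h, and none of them passed the adjusted test at a single time point. Of all genes tested, 0.0205% to 0.0696% passed at a single time point. Over the time points, 0.97% of all genes were called lower and 1.7% higher. A different mix of sorted cells in NLS, which the study proposes for its SPCH and FAMA comparisons, was not tested for this list. Of 57 tested genes for mitosis and cytokinesis, SMC2, a condensin subunit, was called lower over the time points (12.04 to 20.7 CPM in NLS, 9.375 to 16.1 in SRDX-SPCH, log2 difference -0.43 ± 0.10, SE, adjusted p = 0.0254, edgeR), and 14 had an unadjusted p under 0.05, all with a negative difference. At 2 h the median of the list was -0.85, beside 0.0398 for all genes, and 36 of 57 had an unadjusted p under 0.05, all lower, against 8.57% of all genes in either direction. At 3 h and 4 h the medians were -0.19 and -0.04, with 0 members at an unadjusted p under 0.05, against 3.76% and 6.92% of all genes. The summed level at 2 h was 1484, 1021 and 1487 CPM in NLS and 1042, 718.8, 1009 and 865.2 CPM in SRDX-SPCH. Only NLS replicate 2 lay within the range of SRDX-SPCH. When single libraries were left out, the 2 h median ranged from -1.07 to -0.69. The change from 2 h to 4 h passed for 0 of the 57 genes, and 22 had an unadjusted p under 0.05, all rising relative to NLS. With the letter block 5 members were lower over the time points. SMC2 was not called with the block of letter within time point, which called 6 other members, or with summed counts, and without NLS 2 h replicate 2, NLS 2 h replicate 3 or NLS 4 h replicate 1 none was. CDKB1;1, a kinase of the G2 to M transition, had 6.554 to 12.01 CPM in NLS and 3.548 to 10.9 in SRDX-SPCH (log2 difference -0.42, adjusted p = 0.29, edgeR). RNR1, the large subunit of ribonucleotide reductase, was the called gene of 41 for DNA replication, with 9.297 to 18.75 CPM in NLS, 5.317 to 11.34 in SRDX-SPCH and a log2 difference of -0.68 ± 0.13 (SE, adjusted p = 0.00606, edgeR). The replication list had medians of -0.02 at 2 h, -0.24 at 3 h and -0.18 at 4 h, with 22, 32 and 30 of its 41 members negative. None of the 10 D-type cyclins was called, and 3 had an unadjusted p under 0.05, all lower, among them CYCD7;1, which acts in the guard mother cell division (log2 difference -0.53, adjusted p = 0.214, edgeR). SMR5, a cyclin-dependent kinase inhibitor, was higher (1.305 to 5.001 CPM in NLS, 2.811 to 10.11 in SRDX-SPCH), although its gene overlaps AT1G07510.

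**Figure D5:**
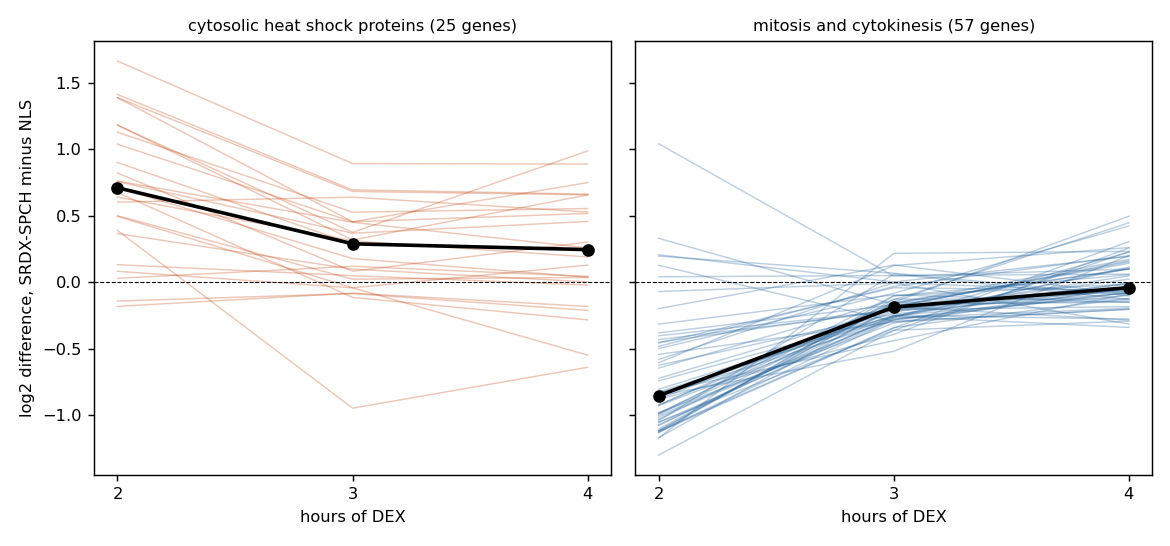
Log2 difference between SRDX-SPCH and NLS at 2, 3 and 4 h of DEX for 25 heat shock genes (left) and 57 mitosis and cytokinesis genes (right), 1 thin line a gene, with the list median in black. The heat shock median goes from 0.71 at 2 h to 0.25 at 4 h and the mitosis median from -0.85 to -0.04, both toward 0.

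Tested 1 time point at a time, 2 genes were higher (0.00818%) and 3 lower (0.0123%) at 2 h, 0.0205% of all genes tested. At 3 h 11 were higher (0.045%) and 3 lower (0.0123%), together 0.0573%, and at 4 h 14 were higher (0.0573%) and 3 lower (0.0123%), together 0.0696%. All of them were also called over the time points together. When single libraries were left out, the higher genes numbered 0 to 23 at 2 h (23 without NLS 2 h replicate 1), 2 to 17 at 3 h and 3 to 50 at 4 h (50 without NLS 4 h replicate 4). AT3G01345, AT1G75945 and NET1C were the lower genes at each time point, and AT5G56460 and AT3G58000 were higher at each of them. With the letter block the higher genes numbered 28, 39 and 85, and the lower ones 7, 4 and 7. Counts were also simulated at the depth of these libraries and with the spread estimated for each gene. The test recovered 49% of genes with a log2 change of 0.7 over the time points together, and 10%, 7% and 23% at 2, 3 and 4 h. For a log2 change of 1.4 it recovered 79% together, and 60%, 59% and 64% at 2, 3 and 4 h. Simulated libraries varied independently, unlike the real ones that share a letter, so recovery in the real data may differ. No gene passed the test for a change of the difference from 2 h to 4 h with edgeR, DESeq2 or limma-voom, and 979 (4.01%) had an unadjusted p under 0.05 with edgeR. The simulated differences were the same at 2, 3 and 4 h, so the simulation cannot tell how often such a change would be found.

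The remaining lists had few called members, and 2.67% of all genes tested were called. The called share was 2.86% for jasmonate, 1.82% for auxin, 4.88% for abscisic acid and 6.25% for brassinosteroid. It was 6.06% for immunity, 3.45% for the cell wall, 23.1% for the aquaporins and 13% for the study's candidates. Lists this short hold few or no called genes at the share of all genes. In the jasmonate list (35 genes) CYP94B3, which inactivates jasmonoyl-isoleucine, fell from 340.3 to 810.1 CPM in NLS to 153.1 to 414.1 in SRDX-SPCH (log2 difference -0.94 ± 0.20, SE, adjusted p = 0.0113, edgeR). GH3.2 was the called gene of 55 for auxin response, with 8.264 to 39.43 CPM in NLS, 3.187 to 15.59 in SRDX-SPCH and a log2 difference of -1.39 ± 0.31 (SE). The abscisic acid list (41 genes) had the kinase SNRK2.3 (0.35) and the phosphatase ABI2 (0.49) higher, where the former promotes and the latter opposes the hormone's response. The call of ABI2 was lost in 17 of 36 alternatives, 16 of them by leaving out 1 library. In the brassinosteroid list (32 genes) SOB7, which inactivates the hormone, was higher (0.55), and the receptor BRL3 was lower (-0.72). PAD3, the last enzyme of camalexin synthesis, and the NADPH oxidase RBOHF were higher in the immunity list (33 genes), with log2 differences of 1.07 and 0.54, and the cell wall list (58 genes) had AGP12 (0.91) and XTH9 (0.86) higher. The call of XTH9 was lost in 17 of 36 alternatives, with limma-voom, the replicate block and 15 of the 22 omissions of 1 library. Of 13 plasma membrane aquaporins, a list written after the values had been seen, PIP1;3 was higher (0.70, adjusted p = 0.0488, edgeR) besides PIP2;2 and PIP2;3, and the list median was 0.35. The call of PIP1;3 was lost in 19 of 36 alternatives, 17 of them by leaving out 1 library. Lists for polarity (12 genes), trichomes (15), vasculature (23), the circadian clock (26), glucosinolates (29), flavonoids (20) and Polycomb and chromatin (42) had 0 called members, with 1, 0, 3, 6, 2, 2 and 3 at an unadjusted p under 0.05, against 12.9% of all genes. The study chose 23 candidates among genes that differed in its SPCH and FAMA lines, by published binding and expression data and predicted function. Of these 23 genes, HDG2 was lower, HIPP20 and RGF6 were higher, and 20 did not pass. RGF6 lost its call in 19 of 36 alternatives, 16 of them by leaving out 1 library, and HDG2 and HIPP20 were not called in the fit of all lines.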

How the data were processed

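The authors aligned mRNA-seq reads with STAR to TAIR10 and counted reads per gene with HTSeq, per the labels and the submitters' processing notes; tool versions, annotation release and strand setting are not given in the sources used here. The deposited values are raw counts per gene, not normalized. They hold 27655 gene IDs, of which 27445 matched the RefSeq TAIR10.1 annotation. Library totals are given in the report; deeper libraries have smaller counting error.

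The SPCH row (AT5G53210) was left out, genes were kept by filterByExpr with a minimum count of 10, and libraries were scaled by TMM. The comparison was fitted with edgeR 4.0.16 (limma 3.58.1, R 4.3.3) by the quasi-likelihood test with time point as covariate, and p-values were adjusted over all genes tested by Benjamini-Hochberg with a threshold of 0.05. Fits per time point, of the change from 2 h to 4 h and against the 3 other factor lines used the same steps. The scripts were tested on simulated counts. DESeq2 1.42.0, limma-voom, other filters, scalings, blocks and each library left out were tried as alternatives.

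Genes named are the 12 higher and 12 lower with the smallest p and 1 sign at all times, the 4 each way with the largest fold among called genes with a mean of at least 5 CPM, called list members, fixed stomatal genes and candidates, and the 5 each way with the smallest p against the 3 other lines among called genes. The members and lists were chosen with earlier results of these data known, and the nitrogen, sulfur, peroxisome, HD-ZIP IV and aquaporin lists after values had been seen. Other genes named were chosen after their values were seen.

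Libraries of both lines with the same replicate number at a time point deviated together (correlation over 0.1) in 8 of 10 pairs, with a median of 0.322. Pairs with different numbers did so in 7 of 30, with a median of -0.116. Some pairs with the same number also share a letter. Whether the numbers mark pairing is not given in the sources used here, so the main fit left them out and a replicate block was an alternative. Libraries with the same letter deviated together in 8 of 8 pairs (0.286 to 0.701), and those with different letters in 7 of 32. A letter block was therefore fitted, and a block of letter within time point was added after this was seen. No libraries were duplicates.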

Additional observations from a re-analysis of the deposited data

Results flagged for a closer look

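In groups of 4 libraries, each called named gene and 3 library measures (total counts, plastid percentage and genes detected) were checked for 1 library far from the others. This was found in 13 of 304 checks (4.28%), all of them of genes, where chance gives about 5%. In NLS at 3 h, replicate 2 had 21.09 CPM of AO1 (others 14.65 to 15.41) and 79.81 of ACX3 (others 85.7 to 86.57). In NLS at 4 h, replicate 4 had 31 CPM of AGP10 (others 14.29 to 16.95) and 1951 of ROF2 (others 1491 to 1562), and replicate 2 had 208.5 of NIA2 (others 285.7 to 290.2). In SRDX-SPCH at 2 h, replicate 1 had 2.803 CPM of AT3G01345 (others 0.3135 to 0.5597). In SRDX-SPCH at 4 h, replicate 4 had 3.082 CPM of IDD16 (others 4.481 to 4.66), 15.01 of SULTR1;2 (others 51.83 to 57.49) and 82.68 of ATML1 (others 68.09 to 68.58). There, replicate 1 had 238.7 CPM of NIA2 (others 181.2 to 186.8), 7090 of HSP90.1 (others 4930 to 5192) and 93.16 of RBR1 (others 77.36 to 78.43), and replicate 3 had 21.98 of GDH1 (others 28.73 to 30).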

How the results depend on the processing

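Over the time points, higher/lower counts were 676 and 544 with DESeq2, 747 and 546 with the letter block, 576 and 359 with at least 10 counts in every library, 575 and 411 at a threshold of 0.1, 279 and 131 with libraries summed, 587 and 364 with a letter block within time points (chosen after seeing the data) and 465 and 238 with the replicate block. Leaving out 1 library gave 292 to 538 higher and 122 to 305 lower genes. At 2 h there were 178 higher and 88 lower genes with DESeq2, 28 and 7 with the letter block, 24 and 11 at a threshold of 0.1, and 27, 4 and 10 higher genes with the stricter filter, a plastid covariate and voom; leaving out 1 library gave 0 to 23 higher and 2 to 13 lower. At 3 h there were 53 and 11 with DESeq2, 21 and 1 with the stricter filter, and 39, 26, 7, 18 and 7 higher genes with the letter block, the threshold of 0.1, the replicate block, the plastid covariate and voom; leaving out 1 library gave 2 to 17 higher and 2 to 3 lower. At 4 h there were 74 and 41 with DESeq2, 85 and 7 with the letter block, 32 and 6 at a threshold of 0.1, 30 and 6 with the plastid covariate, 24 and 5 with voom, 29 higher genes with the stricter filter and 5 lower with the replicate block; leaving out 1 library gave 3 to 50 higher and 3 to 10 lower. Against the 3 other lines, the letter block gave 1949 and 1739, and leaving out 1 library 844 to 1491 and 786 to 1221. The causes of these differences were not tested.

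5 genes near 0 changed sign. SCAP1 was 0.0051 with the stricter filter, 0.0162 with the replicate block, 0.0048 with the plastid covariate, 0.0245 with voom and -0.0639 to 0.1 without 1 library. MYB77 was -0.0149 with all lines, -0.01 with libraries summed, -0.0036 with the letter block within time points and -0.0554 to 0.0796 without 1 library. Without 1 library, CRT1b was -0.0263 to 0.1122, GATA4 -0.0441 to 0.1326 and SAUR71 -0.1397 to 0.1419. The replicate block also lost RBR1, XTH9 and LSU1. The block of letter within time points lost 6 of the named calls (ERL2, SMC2, ACX3, CSY2, MFP2 and GDH1).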

Other observations

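Called genes also lay beside each other on the chromosomes. Of 24316 neighbouring pairs of tested genes, 39 had both members higher, 15 both lower and 2 in opposite directions, and 21 of the same-direction pairs overlap, so reads could have been shared. The longest runs had 4 genes, AT1G65870 (log2 difference 1.05), AT1G65900 (0.72), NAC028 (1.48) and AT1G65920 (0.58), and AT3G59510 (0.80), RBL13 (0.76), LAP3 (0.60) and AT3G59540 (0.43). A run of 3 lower genes held the glutathione transferase genes GSTU2 (-0.97) and GSTU1 (-1.21) and AT2G29485 (-1.18), which lies wholly inside GSTU2, so that reads of both may be the same. Another held AT3G23550 (-1.18), ALF5 (-0.48) and AT3G23570 (-0.84).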
